A study of Mus musculus with 12 samples.

Results

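The 10 genes Fos, Fosb, Jun, Junb, Jund, Egr1, Egr2, Egr3, Nr4a1 and Ier3 are the AP-1 and EGR transcription factor genes with an orphan nuclear receptor gene and a stress-response gene that are commonly counted among the immediate early genes. They were taken by gene name from the deposited table of 54532 genes, and all 10 passed the filter on low counts that left 14473 genes for testing. Poly-A RNA was sequenced from B lymphocytes sorted from wild type mice and from Tmem173-/- mice, which by their label lack STING, the receptor for cyclic dinucleotides. Cells of each genotype were kept as controls or exposed for 12 hours to 3'3'-cGAMP, a bacterial-type cyclic dinucleotide that activates STING. This gave 4 groups of 3 libraries, and each group is named here by its genotype and then by control or cGAMP. The labels give neither the mice's age, sex and background strain nor the cGAMP dose and the vehicle of the controls. They name 3 mice per genotype, fewer than its 6 libraries, so some libraries must share a mouse.

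Immediate early genes are transcribed soon after a stimulus, without new protein synthesis, through kinase cascades that act on factors such as SRF, the ternary complex factors and CREB, and their transcripts usually decay fast. AP-1 is a dimer in which JUN proteins pair with FOS proteins, with each other or with related leucine zipper proteins, whereas EGR proteins are zinc finger factors and NR4A1 (Nur77) is an orphan nuclear receptor. In B cells, Egr1, Egr2, Egr3 and Nr4a1 are known as genes that antigen receptor signalling turns on, and Nr4a1 is widely used as a reporter of that signal.

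Libraries held 26490593 to 31417833 assigned counts, with 18556 to 19727 genes detected in each. Tmem173 itself stood at 80.2 to 103 CPM (counts scaled to library size) in the 6 libraries labelled Tmem173-/-, as high as the 91.2 to 102 CPM of the wild type controls, so the level of this transcript does not check the genotype labels. The sample descriptions and table columns of these libraries begin with GT, which the labels do not explain. In the wild type cGAMP libraries it was at 44.7 to 49.2 CPM. The sum of 7 B cell markers was 4722 to 5711 CPM in wild type controls, 3359 to 4107 CPM in wild type cGAMP libraries and 4908 to 5954 CPM in the 6 Tmem173-/- libraries. Both wild type libraries with replicate number 1 carried more T cell and neutrophil transcripts than the other wild type libraries. None of the 6 T cell, 6 neutrophil, 5 NK cell and 6 monocyte and macrophage markers was at 0 in all libraries, and their summed levels reached at most 16.9, 23.7, 2.33 and 56.7 CPM in any library.

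To show what lies in front of the genes whose levels differed, RefSeq promoter windows were read for the 8 members that have one in the table used, which holds none for Egr1 and Egr3. Printed are the 3 genes that rose and 2 of those that fell after cGAMP in wild type cells, 5′ to 3′ in the direction of transcription (GRCm38.p6). The windows span the bases before the RefSeq start site, at chr12:85473640-85473889 on the plus strand for Fos, chr4:95052223-95052472 on the minus strand for Jun, chr17:35821463-35821683 (plus) for Ier3, chr10:67537619-67537868 (plus) for Egr2 and chr15:101266596-101266845 (plus) for Nr4a1. Capitals mark matches to the searched motifs on either strand.
Fos: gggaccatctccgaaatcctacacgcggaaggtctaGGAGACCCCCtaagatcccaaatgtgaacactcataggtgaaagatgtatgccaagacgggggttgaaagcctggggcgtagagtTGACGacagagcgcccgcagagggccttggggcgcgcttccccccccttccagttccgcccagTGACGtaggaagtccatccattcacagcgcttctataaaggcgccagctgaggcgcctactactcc
Jun: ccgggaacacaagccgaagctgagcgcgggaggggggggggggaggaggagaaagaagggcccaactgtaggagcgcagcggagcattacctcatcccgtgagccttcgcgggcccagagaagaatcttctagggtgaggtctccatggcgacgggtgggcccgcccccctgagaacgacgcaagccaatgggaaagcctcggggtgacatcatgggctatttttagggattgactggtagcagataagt
Ier3: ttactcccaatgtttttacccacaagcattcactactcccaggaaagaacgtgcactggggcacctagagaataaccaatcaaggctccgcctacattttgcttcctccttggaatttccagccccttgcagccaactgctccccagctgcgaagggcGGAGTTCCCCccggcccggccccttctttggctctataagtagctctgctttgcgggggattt
Egr2: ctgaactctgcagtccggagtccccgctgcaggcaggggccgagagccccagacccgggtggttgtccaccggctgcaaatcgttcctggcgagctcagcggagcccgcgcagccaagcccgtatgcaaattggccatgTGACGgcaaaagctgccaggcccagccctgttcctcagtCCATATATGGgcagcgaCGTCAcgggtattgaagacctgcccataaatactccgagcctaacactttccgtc
Nr4a1: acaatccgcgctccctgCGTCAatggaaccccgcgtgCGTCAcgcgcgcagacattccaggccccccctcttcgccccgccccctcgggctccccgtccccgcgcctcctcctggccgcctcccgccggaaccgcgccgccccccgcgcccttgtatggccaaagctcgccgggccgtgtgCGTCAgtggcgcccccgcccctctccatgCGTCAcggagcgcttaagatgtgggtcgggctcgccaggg

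Searched were the cAMP response element TGACGTCA (CRE), its core TGACG, the AP-1 site TGAGTCA, the EGR site GCGTGGGCG, the NR4A site AAAGGTCA, and, by name, the CArG box bound by SRF, the NF-kB site and the interferon-stimulated response element. A CRE contains this core. The Fos window held CRE cores at -129 to -125 and -66 to -62 from the start site and an NF-kB match at -214 to -205. The Egr2 window held a CArG box at -72 to -63 and CRE cores at -111 to -107 and -55 to -51, and the Nr4a1 window held 4 CRE cores between -233 and -36. Ier3 had an NF-kB match at -92 to -83, and the Jun window had no match. The CRE core occurred in 17.8% of all 32851 windows in the table, the NF-kB site in 7.25%, the AP-1 site in 4.46%, the interferon-stimulated response element in 2.98%, the CRE in 1.55%, the CArG box in 1.47%, the NR4A site in 1.34% and the EGR site in 0.536%. These matches describe letters only. Egr2 has 5 RefSeq windows, and the one printed ends 2394 bases inside the deposited gene's start, while the one nearest that start, 24 bases from it, held overlapping NF-kB matches at -117 to -107 and neither a CRE core nor a CArG box. NF-kB matches thus occurred in genes that rose and in a gene that fell. Fosb, which did not pass the test, also held an NF-kB match (-188 to -179) and a CRE core (-60 to -56). Junb, which did not pass either, held a CRE core at -106 to -102. The window of Jund, which fell, had no match and its RefSeq start lies 1210 bases from the deposited start. The printed Nr4a1 window ends 12577 bases inside the deposited start.

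The first comparison asked what cGAMP did to these genes in wild type B cells. The genes did not move as a block: Jun, Fos and Ier3 rose, Egr1, Egr2, Egr3, Jund and Nr4a1 fell, and Junb and Fosb did not pass the test. Of all tested genes, 22.4% were called higher and 25.4% lower in the same comparison (edgeR quasi-likelihood test, Benjamini-Hochberg adjusted p at most 0.05 over all tested genes), against 3 and 5 of these 10. Ier3, counted among those that rose, passed the filter on low counts only through the wild type cGAMP group, so its test depends on that group. In CPM, the control and treated libraries did not overlap in the same 8 genes, as in 54.4% of all tested genes. The median log2 fold change was -0.58 over the 10 genes and -0.0036 over all tested genes.

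Among the JUN subunits, Jun rose most clearly. Jun, the founding AP-1 subunit and a target of the JNK kinases, was at 11.9, 11.4 and 8.66 CPM in the wild type control libraries and at 49.0, 41.3 and 42.1 CPM after cGAMP. Every treated library lay far above every control library. The mean went from 10.7 ± 1.77 to 44.1 ± 4.26 CPM (SD, n = 3 each), a 4.13-fold rise (log2 fold change 2.05, SE 0.12, edgeR adjusted p = 4.75e-09).

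Jund, a JUN subunit that is usually present in resting cells, moved the other way. It was at 148, 156 and 148 CPM in control libraries and at 96.3, 94.9 and 99.2 CPM after cGAMP, again without overlap. The fall was 1.56-fold (log2 fold change -0.64, SE 0.09, edgeR adjusted p = 2.12e-05).

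Junb, a JUN subunit that can hold back Jun-driven transcription, was at 138.5, 142.1 and 150.5 CPM in controls and at 158.3, 148.2 and 157.5 CPM after cGAMP. The groups overlapped. The log2 fold change of 0.11 (95% interval from limma-voom -0.05 to 0.26) did not pass the test (edgeR adjusted p = 0.269), whereas limma on log2(FPKM + 1) called it higher (0.17, adjusted p = 0.0376).

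Both FOS subunits were scarce. Fos, which needs a JUN partner to bind DNA, had 44, 32 and 39 counts in wild type control libraries and 101, 74 and 84 counts after cGAMP, which is 1.57, 1.13 and 1.38 CPM against 3.68, 2.55 and 2.99 CPM. The groups did not overlap, and the rise was 2.26-fold (log2 fold change 1.18, SE 0.26, edgeR adjusted p = 0.00156). Fosb, a FOS subunit with a known role in lasting responses, was at 1.53, 1.76 and 1.02 CPM in controls and 1.24, 0.861 and 0.783 CPM after cGAMP, from 22 to 50 counts per library. Its groups overlapped, and its log2 fold change of -0.58 had a 95% limma-voom interval from -1.26 to 0.12 (edgeR adjusted p = 0.161), so at this depth neither a fall of that size nor no change could be told.

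All 3 EGR genes fell, and Egr2 fell the most. Egr2, a zinc finger factor tied to restraint of lymphocyte activation, stood at 150, 137 and 143 CPM before and at 44.9, 31.1 and 43.9 CPM after cGAMP. The treated libraries lay far below the control libraries. Its fall was 3.58-fold (log2 fold change -1.84, SE 0.12, edgeR adjusted p = 8.06e-09).

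Egr3, which shares targets with Egr2 in lymphocytes, went from 432, 362 and 375 CPM to 227, 175 and 211 CPM. That was a 1.91-fold fall without overlap (log2 fold change -0.93, SE 0.10, edgeR adjusted p = 1.66e-06). Egr1, the classical serum- and antigen-receptor-induced member, went from 120, 114 and 112 CPM to 66.8, 61.1 and 66.3 CPM, a 1.78-fold fall (log2 fold change -0.83, SE 0.07, edgeR adjusted p = 1.97e-07). In both genes the lowest control library stood above the highest treated one.

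Nr4a1 was at 270, 249 and 242 CPM in controls and at 174, 157 and 178 CPM after cGAMP. It fell with no overlap (log2 fold change -0.58, SE 0.11, edgeR adjusted p = 0.000304).

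Ier3, which encodes a short-lived protein linked to survival and NF-kB signalling, was close to the limit of detection in all groups but 1. It had 14, 9 and 2 counts in the wild type control libraries and 74, 40 and 52 counts after cGAMP. The means were 0.295 ± 0.215 and 1.97 ± 0.67 CPM (SD, n = 3 each), and every treated library lay above every control library. The 6.60-fold rise (log2 fold change 2.72, SE 0.61, edgeR adjusted p = 0.00155) rests on few counts. Ier3 passed the filter, which asks for 0.353 CPM in at least 3 libraries, only through the wild type cGAMP group where it was high, since 2 of the other 9 libraries reached that level, so its test depends on that group. Without wild type control replicate 1 the log2 value was 3.31, and on the log2(FPKM + 1) scale, which shrinks low genes, it was 1.13.

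**Figure D1:**
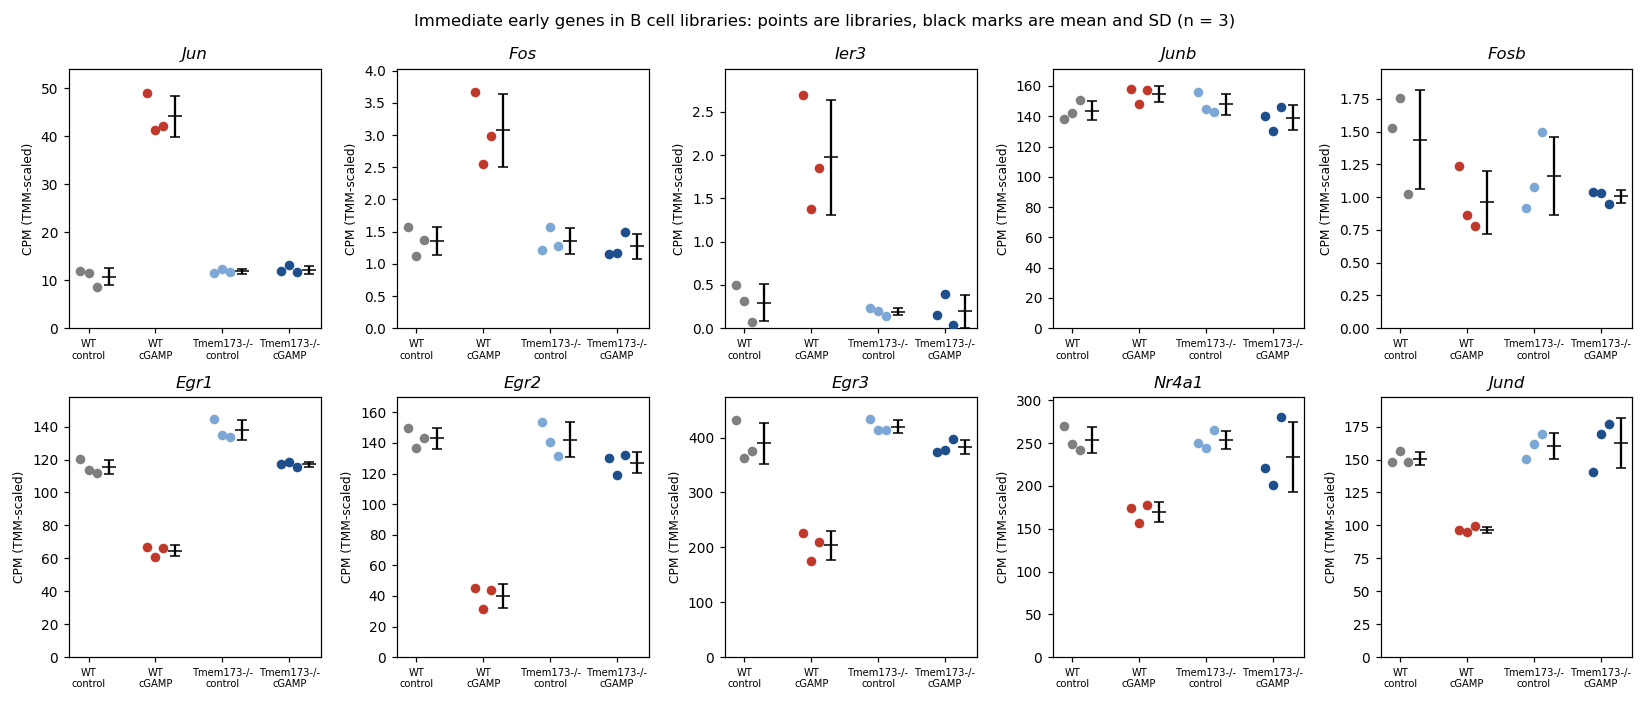
Level of each of the 10 genes in every library, as CPM on a linear axis with its own range per gene. Points are libraries and bars are the mean ± SD of the 3 libraries of a group, with Jun between 41.3 and 49.0 CPM in the wild type cGAMP libraries and between 8.66 and 13.2 CPM in the other 9.

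Bulk RNA cannot tell fewer cells of a kind from less RNA of a gene per cell, and this touches each value above. Monocyte and macrophage markers summed to 30.7 to 42.5 CPM in wild type controls and 6.45 to 13.5 CPM after cGAMP, and dendritic cell markers to 14.0 to 18.1 and 36.2 to 43.4 CPM. Single genes carry both sums: Adgre1 had a mean of 30.8 CPM in controls and 4.41 CPM after cGAMP while Lyz2 had 3.23 and 5.79 CPM. Zbtb46 had 7.12 and 23.0 CPM and Flt3 8.18 and 17.4 CPM, while Xcr1 had 0.461 and 0.249 CPM and Clec9a and Siglech reached at most 0.172 CPM in any wild type library. The 4 plasma cell markers summed to 230 to 251 and 152 to 174 CPM. Among them Sdc1 had means of 70.5 and 19.3 CPM, Xbp1 of 110.9 and 85.7 CPM and Prdm1 of 4.2 and 2.7 CPM. Jchain did not fall, with means of 53.9 and 58.1 CPM. The mitochondrial share of counts was 1.19 to 1.32% in the wild type cGAMP libraries, below the 1.60 to 1.91% of their controls and the 1.76 to 2.26% of the Tmem173-/- libraries. The part of these shifts in the responses of the 10 genes was not tested. Without both wild type replicate 1 libraries, 3 of the genes were again called higher and 5 lower.

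In Tmem173-/- cells the same exposure left none of the 10 genes past the test. Of all tested genes, 0% were called higher and 0% lower by edgeR, while 203 genes (1.4%) had an unadjusted p under 0.05, and DESeq2 and limma-voom also called 0. Jun was at 11.5, 12.4 and 11.7 CPM in Tmem173-/- controls and 11.8, 13.2 and 11.6 CPM after cGAMP. Fos was at 1.21, 1.58 and 1.28 CPM against 1.154, 1.165 and 1.495 CPM, and Ier3 had 7, 6 and 4 counts against 4, 12 and 1. In these 3 genes the treated and control libraries overlapped.

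Egr2 was at 154, 141 and 132 CPM in Tmem173-/- controls and at 130.1, 119.3 and 132.3 CPM after cGAMP, with overlap. Jund was at 150, 162 and 170 CPM against 141, 170 and 177 CPM, and Nr4a1 at 250, 245 and 265 CPM against 221, 201 and 280 CPM. Nr4a1 varied most in the treated Tmem173-/- group (SD 41.1 CPM, n = 3), where replicate 3 lay above every control. The 95% limma-voom intervals of the log2 response were -0.25 to 0.33 for Jun and -0.40 to 0.08 for Egr2, and neither reached the size seen in wild type cells. For Ier3 the interval was -2.30 to 1.42, so its few counts limit what can be said.

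Egr1 was the only one of the 10 with an unadjusted p under 0.05 in Tmem173-/- cells. It was at 145, 135 and 134 CPM in controls and at 117, 119 and 115 CPM after cGAMP, so the groups did not overlap. The log2 fold change was -0.23 (SE 0.07, unadjusted p = 0.00515), and it did not pass after adjustment over all genes (edgeR adjusted p = 1). Egr3 also had lower values in all 3 treated libraries, 373, 377 and 397 against 433.4, 413.6 and 413.7 CPM, with a log2 fold change of -0.14 (edgeR adjusted p = 1). Of all tested genes, 6.64% had groups that did not overlap in this comparison.

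The difference between both responses was then tested directly. Jun rose more in wild type than in Tmem173-/- cells by 2.01 on the log2 scale (SE 0.17, edgeR adjusted p = 8.73e-07), and Egr2 fell more by 1.68 on the log2 scale (SE 0.16, edgeR adjusted p = 2.21e-06). In all, 3 of the 10 genes had a higher and 5 a lower response in wild type cells, where 14.1% and 17.5% of all tested genes did. Egr3 had a difference of -0.80, Jund of -0.66 and Egr1 of -0.60, with edgeR adjusted p-values of 0.000514, 0.000854 and 0.000405. Fosb and Junb did not pass, with differences of -0.38 and 0.19, although limma on log2(FPKM + 1) and log2(FPKM + 0.1) called Junb (0.27 on both, adjusted p = 0.0362 and 0.0402).

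The calls of the 3 other genes in that test were fragile. Fos had a difference of 1.27 (edgeR adjusted p = 0.0175) that missed the threshold without wild type cGAMP replicate 1 (1.11, adjusted p = 0.0517). Ier3 had a difference of 2.70 (edgeR adjusted p = 0.0444), which ended without wild type control replicate 2 or 3, wild type cGAMP replicate 1 or 3, any 1 Tmem173-/- control library, or Tmem173-/- cGAMP replicate 1 or 3, with values of 2.20 to 2.85 and adjusted p-values of 0.0548 to 0.101. Without Tmem173-/- cGAMP replicate 2, which holds 12 of that group's 17 Ier3 counts, the difference was 3.80, and the genotype difference under cGAMP was -4.40 in place of -3.31. Through the filter, this test of Ier3 also depends on the wild type cGAMP group. Nr4a1 had a difference of -0.47 (edgeR adjusted p = 0.0259). It ended without wild type control replicate 1, wild type cGAMP replicate 2, Tmem173-/- control replicate 2 or Tmem173-/- cGAMP replicate 3, with values of -0.44 to -0.32 and adjusted p-values of 0.0557 to 0.0746, and also with scaling to library totals (-0.39, adjusted p = 0.085).

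**Figure D2:**
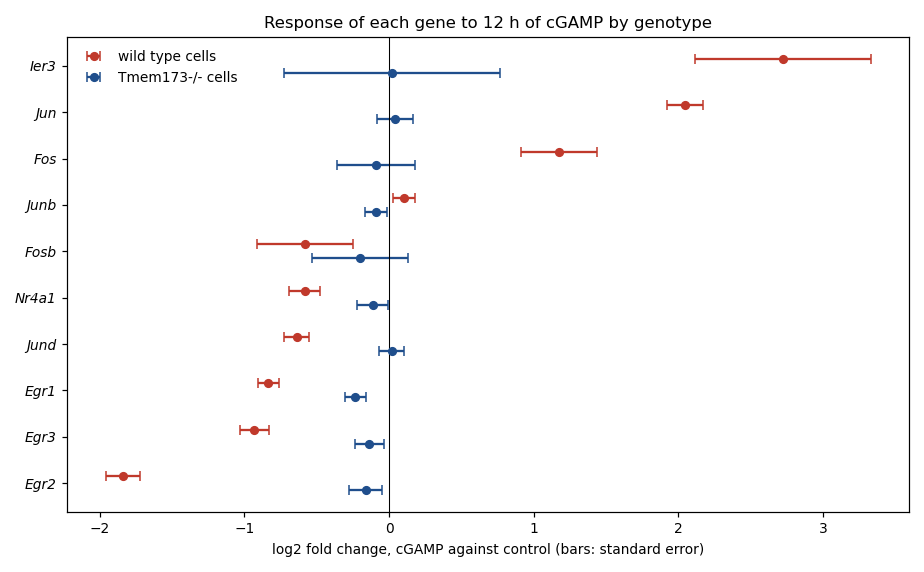
Log2 fold change of cGAMP against control for each gene in wild type and in Tmem173-/- cells, from edgeR, with bars of 1 standard error. The wild type values reach from -1.84 for Egr2 to 2.72 for Ier3, while the Tmem173-/- values lie between -0.23 and 0.04.

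Without cGAMP, none of the 10 genes passed the test between genotypes, and edgeR called 0% of all tested genes higher and 0% lower in Tmem173-/- controls, while 921 genes (6.36%) had an unadjusted p under 0.05, DESeq2 called 4 genes and limma-voom 0. Egr1 stood out by size among the well-counted members. It was at 145, 135 and 134 CPM in Tmem173-/- controls against 120, 114 and 112 CPM in wild type controls, without overlap (log2 fold change 0.26, SE 0.07, unadjusted p = 0.00277, edgeR adjusted p = 0.728). Of all tested genes, 9.09% had groups that did not overlap here. Egr1 lies on chromosome 18, at 34859823 to 34864984 in the deposited coordinates, and its end is 868693 bases from the start of Tmem173, the gene that the genotype label names. The part of that position in the difference was not tested.

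Under cGAMP the genotypes differed in 8 of the 10 genes. Relative to wild type cGAMP cells, Tmem173-/- cGAMP cells had 5 genes higher and 3 lower, where 24.9% and 23.5% of all tested genes were called. Egr2 was 3.18-fold higher (119 to 132 against 31.1 to 44.9 CPM, edgeR adjusted p = 1.57e-08), and Egr3, Egr1, Jund and Nr4a1 were 1.88-fold, 1.81-fold, 1.68-fold and 1.38-fold higher. Jun was 3.61-fold and Fos 2.41-fold lower in Tmem173-/- cells, with edgeR adjusted p-values of 8.71e-09 and 0.00081. Ier3 was 9.88-fold lower there (edgeR adjusted p = 0.000437). Because Ier3 passed the filter only through the wild type cGAMP group, its test depends on that group. The Tmem173-/- cGAMP libraries held 17 Ier3 counts, 12 of them in replicate 2. Junb was lower in all 3 Tmem173-/- cGAMP libraries, at 140, 130 and 146 against 158, 148 and 157 CPM, but missed the threshold (edgeR log2 fold change -0.15, adjusted p = 0.108), except on the FPKM scales (adjusted p = 0.0325 and 0.0362). Groups did not overlap in 58.9% of all tested genes here. This comparison shares the wild type cGAMP libraries with the wild type response.

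Levels of different genes were compared per transcript length, as deposited FPKM (fragments scaled to transcript length and library size). In wild type controls the order was Nr4a1 at 158, Egr3 at 155, Junb at 121, Egr2 at 89.0, Jund at 87.9, Egr1 at 29.9, Jun at 3.27, Fos at 1.21, Fosb at 0.432 and Ier3 at 0.259 FPKM. Nr4a1 and Egr3, Egr2 and Jund, and Fosb and Ier3 overlapped over libraries, while the other neighbours did not. After cGAMP in wild type cells Junb led at 137 FPKM, ahead of Nr4a1 at 110 and Egr3 at 84.8 FPKM. Jun, at 14.1 ± 1.41 FPKM, came close below Egr1, at 17.5 ± 0.85 FPKM (SD, n = 3 each). The FPKM values of 7 of these genes rest on a shorter length than the table's length column gives, for example 1566 against 3509 bases for Nr4a1. With that column's lengths, an alternative chosen after seeing the data, Jund led in wild type controls at 87.9 and Nr4a1 followed Egr3 at 70.4, so the order between genes depends on the length used.

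The makeup of the JUN subunits differed after cGAMP in wild type cells. Jun made up 1.53 ± 0.28% of the summed Jun, Junb and Jund FPKM in wild type controls and 6.70 ± 0.53% after cGAMP (SD, n = 3 each). Jund went from 41.3 ± 1.31% to 28.1 ± 0.65%, and Junb from 57.1 ± 1.55% to 65.2 ± 0.26%. The sum was 212.5 ± 9.9 FPKM in controls and 210.4 ± 6.7 FPKM after cGAMP, a difference smaller than the spread between libraries. In Tmem173-/- cells Jun's share was 1.63 ± 0.08% and 1.73 ± 0.18%. With the length column, Jun's share in wild type cells went from 2.15% to 9.94% and the sum from 151.8 ± 8.6 to 141.8 ± 4.2.

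The EGR sum went from 273 ± 26.4 to 128 ± 16.8 FPKM in wild type cells, and was 301 ± 4.01 and 269 ± 12.3 FPKM in Tmem173-/- cells. Within it, Egr2 went from 32.6 ± 0.93% to 20.2 ± 1.48% in wild type cells, while Egr3 went from 56.4 ± 1.26% to 66.0 ± 0.70% and Egr1 from 10.9 ± 0.45% to 13.8 ± 1.21%. These shares are descriptions without a test.

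**Figure D3:**
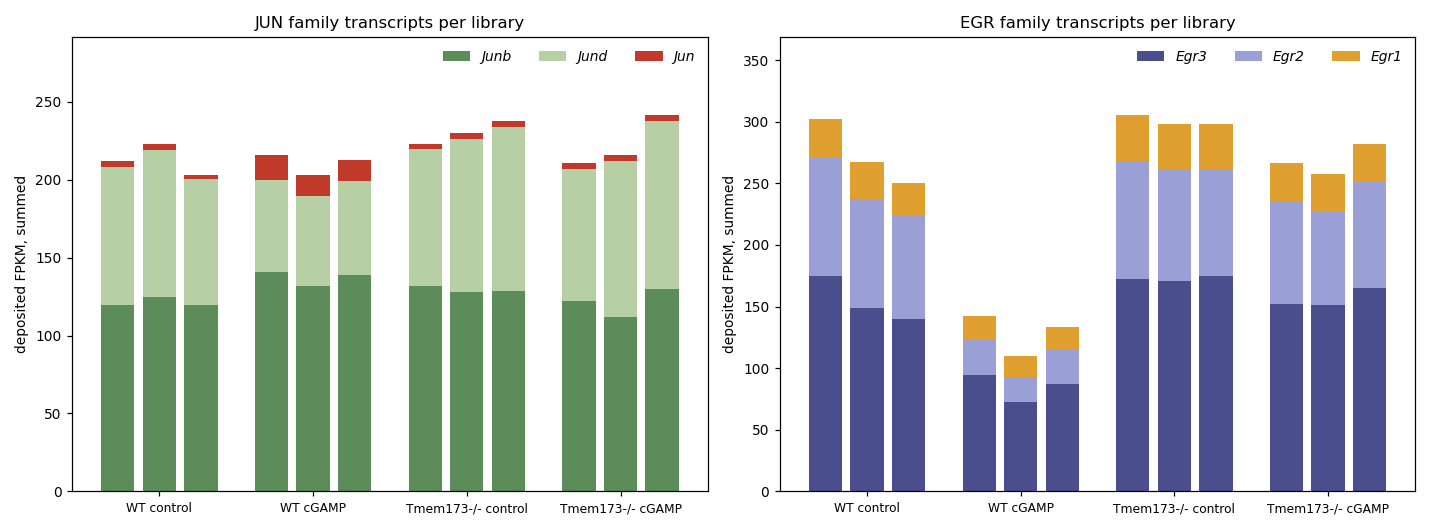
Deposited FPKM of the JUN genes (left) and the EGR genes (right) stacked in 1 bar per library, 3 libraries per group, on linear axes that start at 0. The JUN bars of wild type cells keep a similar height while the Jun part is wider after cGAMP, and the EGR bars drop to between 110 and 142 FPKM in the wild type cGAMP libraries.

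Other genes of the same pathways were taken from lists that were chosen with earlier results of these data known. Of 17 further AP-1 and related leucine zipper genes, 15 were tested. In wild type cells 7 of them were called higher and 3 lower while 5 did not pass, with a median log2 fold change of 0.65. Over all tested genes, 22.4% were called higher and 25.4% lower in this comparison. Atf3, a stress-induced factor that pairs with Jun, rose from 2.15 ± 0.28 to 42.2 ± 2.12 CPM (log2 fold change 4.30, edgeR adjusted p = 5.58e-11). Batf, a Jun partner in lymphocytes, rose by 0.84 and the small Maf genes Mafg and Mafk by 0.95 and 0.65 on the log2 scale, with Nfil3 at 0.86. Fosl2, another FOS subunit, fell by 0.66 on the log2 scale (edgeR adjusted p = 0.0258). Of these genes, 4 were called higher without wild type control replicate 2 or 3, or without wild type cGAMP replicate 1. The number called lower was 1 on either FPKM scale, without wild type control replicate 1 or without wild type cGAMP replicate 2.

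Of 8 relatives and corepressors of the EGR and NR4A factors, 6 were tested, and 1 rose, 3 fell and 2 did not pass. Beside these few genes stand 22.4% higher and 25.4% lower of all tested genes. Nab2, a corepressor that EGR factors induce and that binds them in turn, fell from 79.8 ± 2.64 to 49.0 ± 3.08 CPM (log2 fold change -0.70, edgeR adjusted p = 2.67e-06). Its paralog Nab1 rose by 0.47 on the log2 scale (edgeR adjusted p = 0.000131). Ncoa2, a nuclear receptor coactivator, fell by 0.44 on the log2 scale. Nr4a2 and Nr4a3, the paralogs of Nr4a1, had log2 fold changes of 0.02 and -0.14 and did not pass.

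Other immediate early genes went both ways too. Of 38, 37 were tested, with 13 called higher, 19 lower and 5 neither, against 22.4% higher and 25.4% lower of all tested genes. Their median log2 fold change was -0.27. Rgs2, a brake on G protein signalling, fell from 105 ± 5.97 to 22.3 ± 2.05 CPM (log2 fold change -2.24, edgeR adjusted p = 4.94e-11). Id3, an inhibitor of E proteins that EGR factors can induce, fell by 1.53 on the log2 scale, and Dusp6, an ERK phosphatase, and Ier5l fell by 1.42 and 1.45. Gadd45b, a stress gene that NF-kB can induce, rose from 34.8 ± 3.90 to 134 ± 7.99 CPM (log2 fold change 1.94, edgeR adjusted p = 9.72e-08), and the polo-like kinase gene Plk2 rose by 1.99.

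Among 33 kinases and factors upstream of these genes, 4 were called higher, 17 lower and 12 neither. The shares of all tested genes were 22.4% higher and 25.4% lower. Their median log2 fold change was -0.20. Mef2c, a factor that works downstream of the B cell receptor, fell from 554 ± 48.1 to 187 ± 12.4 CPM (log2 fold change -1.57, edgeR adjusted p = 2.86e-08). Rasgrp1, which activates Ras, fell by 1.33 on the log2 scale, Elk3, a ternary complex factor, by 1.08, and the ERK1 gene Mapk3 by 0.92. Map3k1 and Mapk14, which encodes p38α, fell by 0.85 and 0.61. The number that rose was 9 with scaling to library totals, 8 on either FPKM scale, and 2 without wild type cGAMP replicate 3 or without both wild type replicate 1 libraries.

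Heat shock genes, a list of 10 that handling of cells can also raise, were followed beside these. Of them 6 rose, 0 fell and 4 did not pass in wild type cells, where 22.4% and 25.4% of all tested genes were called higher and lower. Hspd1 went from 573 ± 123 to 1149 ± 181 CPM (log2 fold change 1.00, edgeR adjusted p = 0.000398). The summed level of the heat shock genes was 8198 to 12610 CPM in wild type controls, 14660 to 16080 CPM after cGAMP and 8658 to 10670 CPM in the 6 Tmem173-/- libraries. The lowest control sum is that of replicate 2, where Hsp90aa1 stood at 13.4 CPM against 869 and 969 CPM in replicates 1 and 3. The part of the heat shock shift in the levels of Jun, Fos or Atf3 was not tested. In Tmem173-/- cells 0 genes of any of these lists were called.

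**Figure D4:**
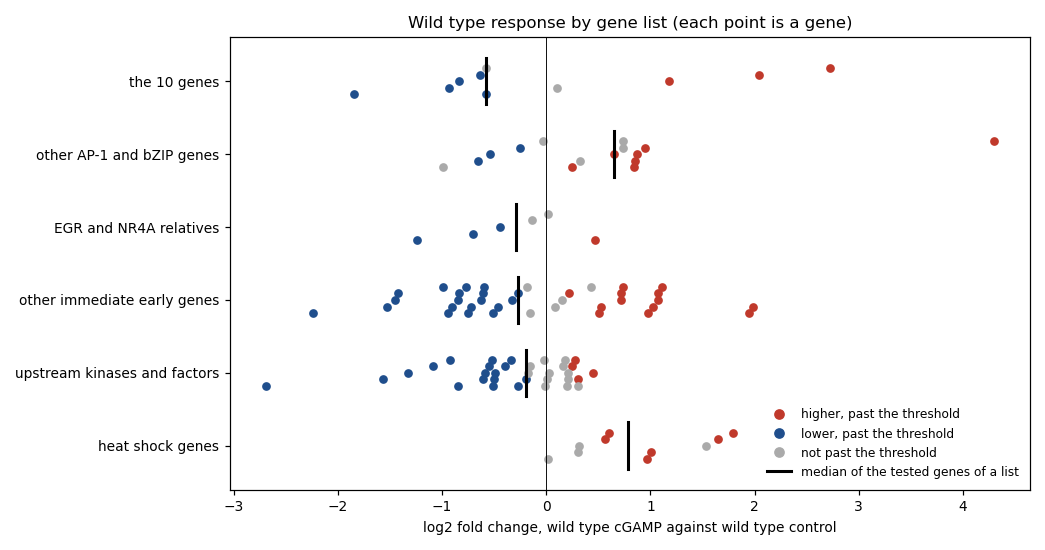
Log2 fold change of cGAMP against control in wild type cells for every tested gene of each list, with a black bar at the list's median. Red points passed the test as higher, blue points as lower and grey points did not pass; the medians run from -0.58 for the 10 genes to 0.79 for the heat shock genes.

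Some reads of the JUN genes could belong to overlapping genes, since the sources do not say whether counting used strand. Junos, antisense to Jun, had 0 to 14 counts per library beside at least 245 for Jun, and Gm11175, which overlaps Jund, had 0 counts in all 12 libraries. Prdx2, a peroxidase gene on the opposite strand whose end overlaps Junb, fell by 0.53 on the log2 scale in wild type cells (edgeR adjusted p = 0.00315).

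Genes with the most similar profile were found by Pearson's r of log2 CPM over the 12 libraries, among 9491 tested genes with a mean of at least 5 CPM. Egr3 was closest to Bmpr2 (r = 0.99), Egr2 to Fyn (r = 0.99), Jun to Atm (r = 0.99), Jund to Rbpms (r = 0.99), Egr1 to Lzts2 (r = 0.99), Fos to Hsf2 (r = 0.98), Nr4a1 to Sh2d2a (r = 0.96) and Ier3 to Eaf1 (r = 0.95). Junb and Fosb had no close match, with r = 0.83 for Slc4a1ap and r = 0.79 for Acd. The wild type cGAMP libraries stand apart from the other 9 in most of these genes, so a high r mainly restates that difference.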

How the data were processed

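Poly-A RNA was sequenced from 12 libraries of sorted mouse B lymphocytes, 3 in each of 4 groups named by the labels. The authors deposited raw read counts per gene and, separately, FPKM per gene. Per the submitters' processing notes, fastp, STAR and featureCounts and the build GRCm38 (mm10) were used, while versions, settings, strandedness and annotation release are not given in the sources used here. The deposited FPKM are proportional to counts over library totals within each gene and were used to compare levels between genes.

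Genes passing filterByExpr were fitted with edgeR 4.0.16 (TMM scaling, robust quasi-likelihood test, 4 group means, R 4.3.3), with 5 contrasts and Benjamini-Hochberg adjustment over all 14473 tested genes at 0.05. An exact permutation test of 3 against 3 libraries cannot go below p = 0.1. Intervals of 95% came from limma-voom 3.58.1, and DESeq2 1.42.0 and limma on log2(FPKM + 1) and log2(FPKM + 0.1) were alternatives, as were other scalings, no filter, a replicate block and left-out libraries. The fit was also run on simulated counts with few changed genes, as many up as down, and independent libraries. That setting is unlike the broad wild type response, so it does not check the scaling or error rate there. Total counts of 26490593 to 31417833 per library set the precision.

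Named were all 10 members and, from each list, up to 6 genes past the threshold in the wild type response with the largest changes whose higher group averaged 5 CPM or more. The members and lists were chosen with earlier results of these data known. The labels do not say that equal replicate numbers mark the same mouse, so numbers were not taken as pairs in the main fit. After group means were removed, each library nevertheless correlated best with the same-numbered library of its genotype, and a replicate block was an alternative. The labels name 3 mice per genotype for 6 libraries and do not say which libraries share a mouse, so p-values treat libraries that may share a mouse as independent and measure only the spread between these libraries, which may be technical in part. Promoter windows are from RefSeq (GRCm38.p6). Those overlapping the deposited gene's start were trimmed there.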

Additional observations from a re-analysis of the deposited data

Results flagged for a closer look

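The response to cGAMP differed between wild type and Tmem173-/- cells in 8 of the 10 genes, by edgeR's test of the difference itself (wild type response minus Tmem173-/- response, log2). The response was higher in wild type cells for Jun (2.007), Fos (1.267) and Ier3 (2.704). It was lower for Egr2 (-1.68), Egr3 (-0.7972), Jund (-0.6566), Egr1 (-0.6003) and Nr4a1 (-0.4678). Of all tested genes, 14.1% had a higher and 17.5% a lower response in wild type cells. The calls of Fos, Ier3 and Nr4a1 ended when single libraries were left out. Because Ier3 passed the filter on low counts only through the wild type cGAMP group, its test depends on that group.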

How the results depend on the processing

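The members' calls in the wild type response and between genotypes under cGAMP held in direction and threshold for the same 8 genes under all 22 alternatives, and no call reversed. For Ier3, counted among them, this adds little, since it passed the filter on low counts only through the wild type cGAMP group and its test depends on that group. Junb was also called on both FPKM scales, which makes 4 members higher in the wild type response. In the difference of responses, 3 members were called higher, but 1 without wild type cGAMP replicate 1 and 1 without both wild type replicate 1 libraries. Leaving out libraries gave 1 to 3 members called higher and 4 to 5 lower there, always 3 and 5 in the wild type response, 5 and 3 between genotypes under cGAMP, and 0 and 0 in both other comparisons. Nr4a1's difference also ended on log2(FPKM + 1) and log2(FPKM + 0.1), with adjusted p = 0.116 and 0.115, and without both wild type replicate 1 libraries (0.0806).

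Same-numbered libraries correlated by 0.30, 0.22 and 0.08 in wild type and 0.29, 0.10 and 0.17 in Tmem173-/- cells, each best with its own number, a hint from the data and not from the design. With a replicate block, 8, 0, 8, 0 and 8 members were called in the wild type response, the Tmem173-/- response, their difference, and between genotypes without and with cGAMP, as without the block, and the genes called higher among the 33 upstream kinases and factors went from 4 to 10. The block was replicate within genotype for both responses and their difference. Between genotypes it joined equal numbers of different mice, which neither the labels nor these correlations link. Without a filter on low counts, 10 genes were called higher and 13 lower in the Tmem173-/- response, and 32 higher and 119 lower between control genotypes, none of them a member. Scaling to library totals moved the median of all genes by 0.068 in the wild type response. Depth limits Fos, Fosb and Ier3, with 1 to 101 counts per library.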
